A study of Mus musculus with 12 samples.

Results

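The 38 genes described here run the cell division cycle. They were chosen by symbol, from the cyclins and kinases that start mitosis to the spindle and checkpoint proteins, the replication machinery, the G1 cyclins and the CDK inhibitors, and all 38 were found among the 23253 genes of the deposited count table. All 38 also passed the filter on low counts and were tested among 17909 genes. RNA was sequenced in 12 libraries of cells labelled as cortical neurons isolated by flow cytometry from C57BL/6 mice, 3 libraries in each of 4 groups. The siRNA-labelled stroke group had a cortical stroke and, per its label, siRNA against GDF10, a secreted growth factor of the TGF-beta superfamily. The stroke group had the stroke alone. The lesion was made by shining cold light on the exposed skull after rose bengal, a photosensitive dye that clots the vessels under the light. The P4 group is labelled as a control, and the labels do not expand the name P4. The adult control group is titled WT, with no stroke or siRNA in its condition label. A single growth note, on adult mice, stands on every sample. The labels give no age, no interval between stroke and collection, no control siRNA and no statement that the libraries of a group came from separate animals, so p-values measure the spread between libraries, which may be technical.

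Progress through the cycle is driven by cyclin-dependent kinases. D-type cyclins act in G1, E-type cyclins at the start of DNA synthesis, and cyclins A and B with Cdk1 in G2 and mitosis, while inhibitors such as p21 and p27 hold the kinases back. Cortical neurons leave the cycle when they are born. In the adult cortex oligodendrocyte precursors keep dividing at a low rate, and microglia can divide after injury.

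Total counts ranged from 10517638 to 48633350 per library, and the 38 genes together took 0.0653 ± 0.0124% of all counts in siRNA-labelled stroke, 0.0735 ± 0.00945% in stroke, 0.0558 ± 0.0177% in P4 and 0.0648 ± 0.0245% in adult control (SD, n = 3 each). The third adult control library, the shallowest, stood apart. It was the highest of the 12 libraries for 11 of the 38 genes and the lowest for another 11, and the correlation of its log2 levels with adult control 1 and 2 over genes was 0.753 and 0.681, against 0.902 between those libraries. Ccnb2, Aurkb and Mcm2 had 0 counts there, which allows up to 0.342 CPM (counts per 1e6 reads of the TMM-adjusted library size, the unit of every level here) from counting error alone. The called counts of the 38 genes against adult control are therefore given with and without that library. So are those of other gene lists in P4 over adult control. Values of single genes without it are given for some genes only. Library numbers ran from 1 to 3 in siRNA-labelled stroke and adult control and from 4 to 6 in stroke and P4, so a batch that followed these numbers cannot be told apart from the group in 4 of the 6 comparisons. Gdf10 itself gave 0.50, 0.41 and 0.03 CPM in siRNA-labelled stroke, 0, 0.16 and 0 in stroke, 3.54, 4.78 and 2.09 in P4, and 0.59, 0.52 and 0 in adult control. At these levels the counts do not check the siRNA label.

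Markers of other cells were abundant in libraries labelled as neurons. The 12 oligodendrocyte markers summed to 63140 to 111100 CPM in siRNA-labelled stroke, 52320 to 71190 in stroke, 107.3 to 352.1 in P4 and 34010 to 113200 in adult control. The 15 neuronal markers summed to 1843 to 2846 CPM in siRNA-labelled stroke, 1679 to 2270 in stroke, 6283 to 11300 in P4 and 1906 to 5726 in adult control. In such bulk libraries a change in the share of dividing cells and a change in RNA per cell cannot be told apart.

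The promoters of these genes carry short elements known from cell cycle control. The genes were chosen by symbol and not by these elements. Since the elements are known from genes of this kind, their shares are no independent test. RefSeq promoters of build GRCm38.p6, from 250 bases before to 50 after the first listed start, were found for 30 of the 38 genes, and those without an entry were Ccna2, Aurkb, Kif20a, Tpx2, Mcm4, Ccnd1, Ccnd2 and Ccne2. The cell cycle homology region (CHR), taken as TTTGAA or TTTAAA on either strand, is bound in mammals by the DREAM complex, which represses mitotic genes outside G2 and mitosis. It was found in 20 of the 30 promoters (66.7%), against 27.6% of all 32851 promoters in the table. Each member counted with 1 promoter, while that background held every listed promoter, including further starts of a gene. CCAAT, the NF-Y box, was found on either strand in 23 of 30 (76.7%), against 37.4% of all promoters. An E2F element, taken as TTTGGCGC, TTTCCCGC, TTTGCCGC or TTTCGCGC on either strand, was found in 5 of 30 (16.7%), against 2.26% of all. Overlapping matches were each counted. Among the mitotic genes 15 of 17 promoters held a CHR word, 15 held CCAAT and 1 held an E2F word. Among the S phase genes 3 of 8 held a CHR word, 7 held CCAAT and 4 held an E2F word. The G1 genes and inhibitors had 2, 1 and 0 of 5. These are matches of letters and not mapped binding sites, and a promoter without a match is only a window without these letters.

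The promoters of 4 mitotic genes and of the replication gene Mcm3 are shown to set the patterns side by side, each 5′ to 3′ on the strand of the gene, with CHR, CCAAT and E2F words in capitals in the orientation in which they occur.
Ccnb1 chr13:100786437-100786736 minus strand: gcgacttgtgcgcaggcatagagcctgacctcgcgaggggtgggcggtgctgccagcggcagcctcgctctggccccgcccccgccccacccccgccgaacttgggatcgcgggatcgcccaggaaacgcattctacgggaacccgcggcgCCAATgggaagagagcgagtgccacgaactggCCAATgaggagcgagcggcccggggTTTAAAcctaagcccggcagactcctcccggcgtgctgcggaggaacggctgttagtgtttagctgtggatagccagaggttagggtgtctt
Ccnb2 chr9:70421505-70421804 minus strand: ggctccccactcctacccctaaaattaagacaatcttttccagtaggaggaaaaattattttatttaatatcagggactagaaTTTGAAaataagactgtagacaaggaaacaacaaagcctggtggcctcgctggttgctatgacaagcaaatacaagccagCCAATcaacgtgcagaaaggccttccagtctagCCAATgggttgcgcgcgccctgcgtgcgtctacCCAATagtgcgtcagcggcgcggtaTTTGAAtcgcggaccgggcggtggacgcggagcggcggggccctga
Cdk1 chr10:69352863-69353162 minus strand: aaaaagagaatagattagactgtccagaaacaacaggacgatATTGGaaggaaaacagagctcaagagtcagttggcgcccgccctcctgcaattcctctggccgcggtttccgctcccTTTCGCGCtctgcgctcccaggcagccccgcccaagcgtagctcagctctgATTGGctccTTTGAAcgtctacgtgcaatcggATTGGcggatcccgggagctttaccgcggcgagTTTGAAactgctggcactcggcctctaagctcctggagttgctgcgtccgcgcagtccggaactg
Mki67 chr7:135716330-135716629 minus strand: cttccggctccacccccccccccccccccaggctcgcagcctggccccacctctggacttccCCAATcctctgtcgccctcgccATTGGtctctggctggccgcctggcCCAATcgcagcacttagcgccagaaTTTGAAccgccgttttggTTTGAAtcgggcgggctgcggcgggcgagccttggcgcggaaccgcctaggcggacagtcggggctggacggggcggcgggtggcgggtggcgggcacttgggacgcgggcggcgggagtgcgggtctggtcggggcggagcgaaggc
Mcm3 chr1:20820263-20820562 minus strand: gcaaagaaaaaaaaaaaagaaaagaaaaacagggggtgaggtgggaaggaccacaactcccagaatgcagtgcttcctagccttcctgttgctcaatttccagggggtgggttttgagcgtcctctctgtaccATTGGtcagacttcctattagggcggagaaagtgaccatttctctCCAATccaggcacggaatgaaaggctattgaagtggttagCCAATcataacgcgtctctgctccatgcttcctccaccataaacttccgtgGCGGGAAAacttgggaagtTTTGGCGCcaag
Ccnb1 holds both CCAAT boxes upstream of 1 CHR word close to the start, and Ccnb2 holds 3 CCAAT boxes and 2 CHR words. Cdk1 adds an E2F word to 3 CCAAT boxes and 2 CHR words. Mcm3 holds 3 CCAAT boxes and 2 E2F words, both after the start, with no CHR word.

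Levels differed widely among the members. Per kilobase of transcript, the group median in stroke was 48.4 CPM per kb for Pcna, the sliding clamp of the replication fork, which ranked first of 38. Cdkn1a, which encodes the CDK inhibitor p21, followed at 21.5, then Ccnd1, cyclin D1, at 16.2, Mki67, the Ki-67 antigen of dividing cells, at 10.9, and Top2a, topoisomerase II alpha, at 9.92 CPM per kb. The same medians in P4 were 26.6 for Pcna, 4.39 for Cdkn1a, 2.43 for Ccnd1, 4.04 for Mki67 and 5.15 for Top2a. Transcript lengths were those of the longest GENCODE transcript linked to the RefSeq transcript listed for each gene in the deposited table.

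**Figure D1:**
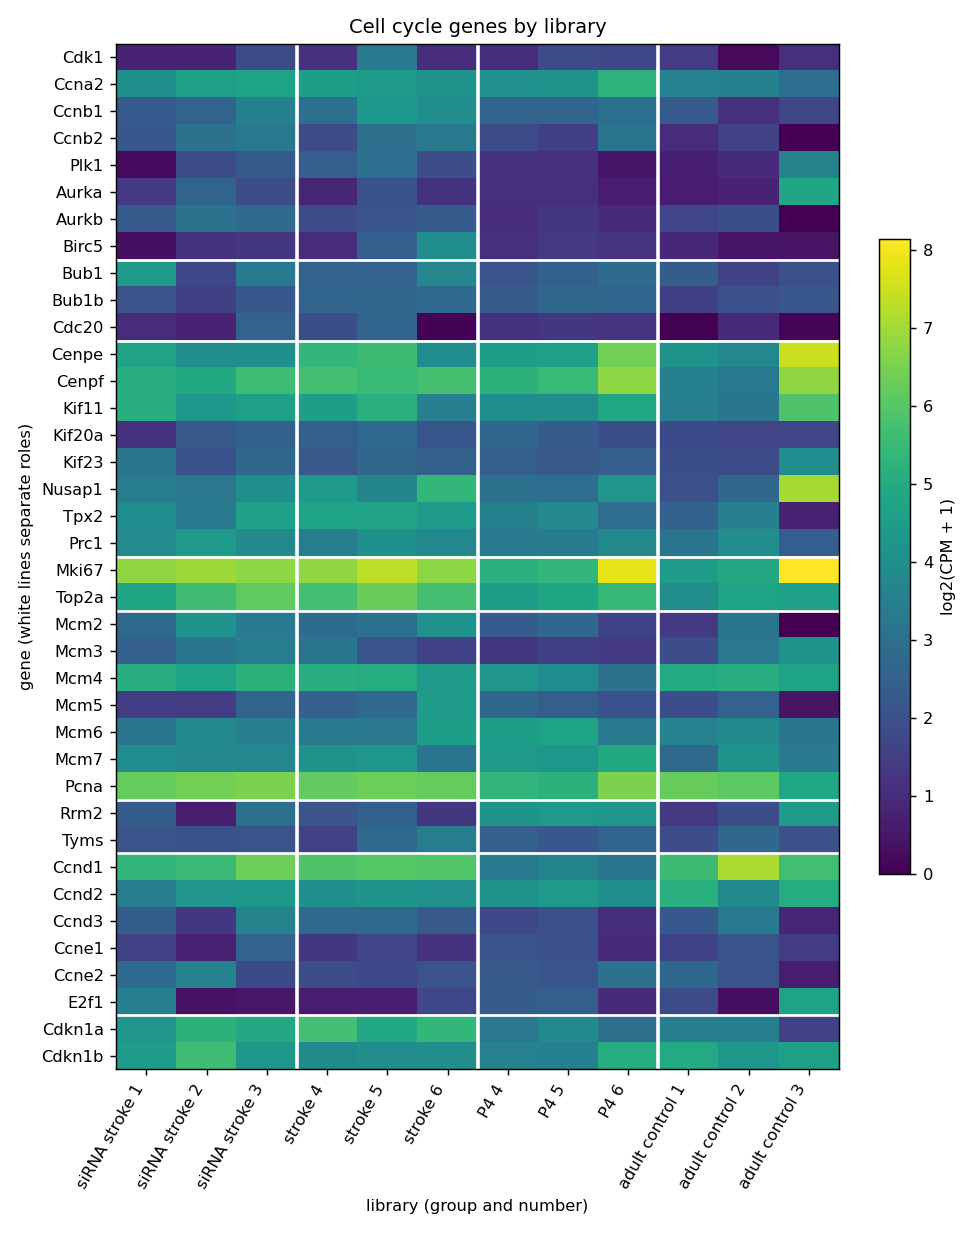
Level of each of the 38 genes, as log2(CPM + 1) in colour, in each of the 12 libraries, with genes ordered by role (white lines between roles) and libraries by group. Adult control 3 departs from adult control 1 and 2 in both directions, with Cenpe, Cenpf, Nusap1, Mki67 and Aurka bright and Ccnb2, Aurkb and Mcm2 at 0.

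The 21 mitotic genes were summed in each library to show their joint level. The sum was 332.3, 335.3 and 407.6 CPM in siRNA-labelled stroke and 395.9, 516.2 and 401.2 in stroke. It was 206.8, 230.5 and 606.1 in P4, and 125.1, 145.6 and 860.5 CPM in adult control. All 6 libraries from stroke brains lay above adult control 1 and 2 and below adult control 3. P4 6 stood well above P4 4 and 5. The ranges of siRNA-labelled stroke and of stroke overlapped.

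The comparison of stroke with adult control asks which of these genes differ after injury. No member was called in either direction by edgeR's quasi-likelihood test (Benjamini-Hochberg adjusted p under 0.05 over 17909 genes), where 0.486% of all tested genes were called higher and 0.218% lower. At an unadjusted p under 0.05 there were 7 members higher and 0 lower, against 5.46% and 10.5% of all tested genes. DESeq2 called 5 members higher and 0 lower, against 2.5% and 5.23% of the genes it gave an adjusted p. All 3 stroke libraries lay above all 3 adult controls for 10 of 38 members, against 11% of all tested genes, and below them for 1, against 9%. The median log2 fold change of the members was 0.34, against -0.08 over all genes tested.

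The B-type cyclins, the partners of Cdk1 at mitotic entry, lay above adult control. Ccnb1 had 6.84, 19.1 and 15.0 CPM in stroke libraries, against 3.89, 1.17 and 2.395 CPM in adult controls, a log2 fold change of 2.46 ± 0.72 (SE) with an adjusted p of 0.136 by edgeR. Ccnb2 had 2.73, 6.95 and 8.74 CPM in stroke, against 1.03, 2.06 and 0 CPM in adult control (adjusted p = 0.278). The groups did not overlap for either gene, and neither passed the test. Ccna2, cyclin A2, had 21.95, 20.7 and 16.9 CPM in stroke, against 11.14, 10.9 and 6.73 CPM in adult control, also without overlap (log2 fold change 1.04 ± 0.48, adjusted p = 0.306). Cdk1 had 1.24, 9.097 and 1.03 CPM in stroke, against 1.705, 0.149 and 1.14 CPM in adult control, and stroke 5 alone lay above all adult controls.

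Birc5, which encodes survivin of the chromosomal passenger complex, had 1.04, 4.42 and 15.0 CPM in stroke, against 0.872, 0.398 and 0.342 CPM in adult control. Its log2 fold change of 3.64 ± 1.18 had an adjusted p of 0.170, and its stroke libraries spread over more than their distance from the controls. Tpx2, a spindle assembly factor that activates Aurora A, had 25.3, 24.9 and 20.1 CPM in stroke, against 4.798, 10.6 and 0.684 CPM in adult control (log2 fold change 2.11 ± 0.75, adjusted p = 0.200). Top2a, which untangles sister chromatids, had 51.8, 77.1 and 50.8 CPM in stroke, against 15.1, 25.5 and 24.4 CPM in adult control (log2 fold change 1.47 ± 0.44, adjusted p = 0.148). Both genes had every stroke library above every adult control. Bub1, Bub1b and Kif20a, 2 checkpoint kinases and a kinesin of cytokinesis, also did not overlap, with log2 fold changes of 1.27, 1.01 and 0.98.

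Cdkn1a was the member with the smallest p. It had 51.4, 28.4 and 41.2 CPM in stroke, against 10.27, 10.11 and 2.05 CPM in adult control, a log2 fold change of 2.42 ± 0.60 with an unadjusted p of 0.00107 and an adjusted p of 0.0866. Every stroke library lay well above every adult control. Cdkn1b, which encodes the inhibitor p27, was the 1 member whose stroke libraries all lay below the controls, with 13.7, 14.9 and 15.1 CPM in stroke, against 30.45, 18.1 and 23.0 CPM in adult control. The authors' deposited table called Ccnb1 and Cdkn1a in this comparison, among 3.02% of its genes. DESeq2 called Ccnb1, Birc5, Tpx2, Top2a and Cdkn1a.

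**Figure D2:**
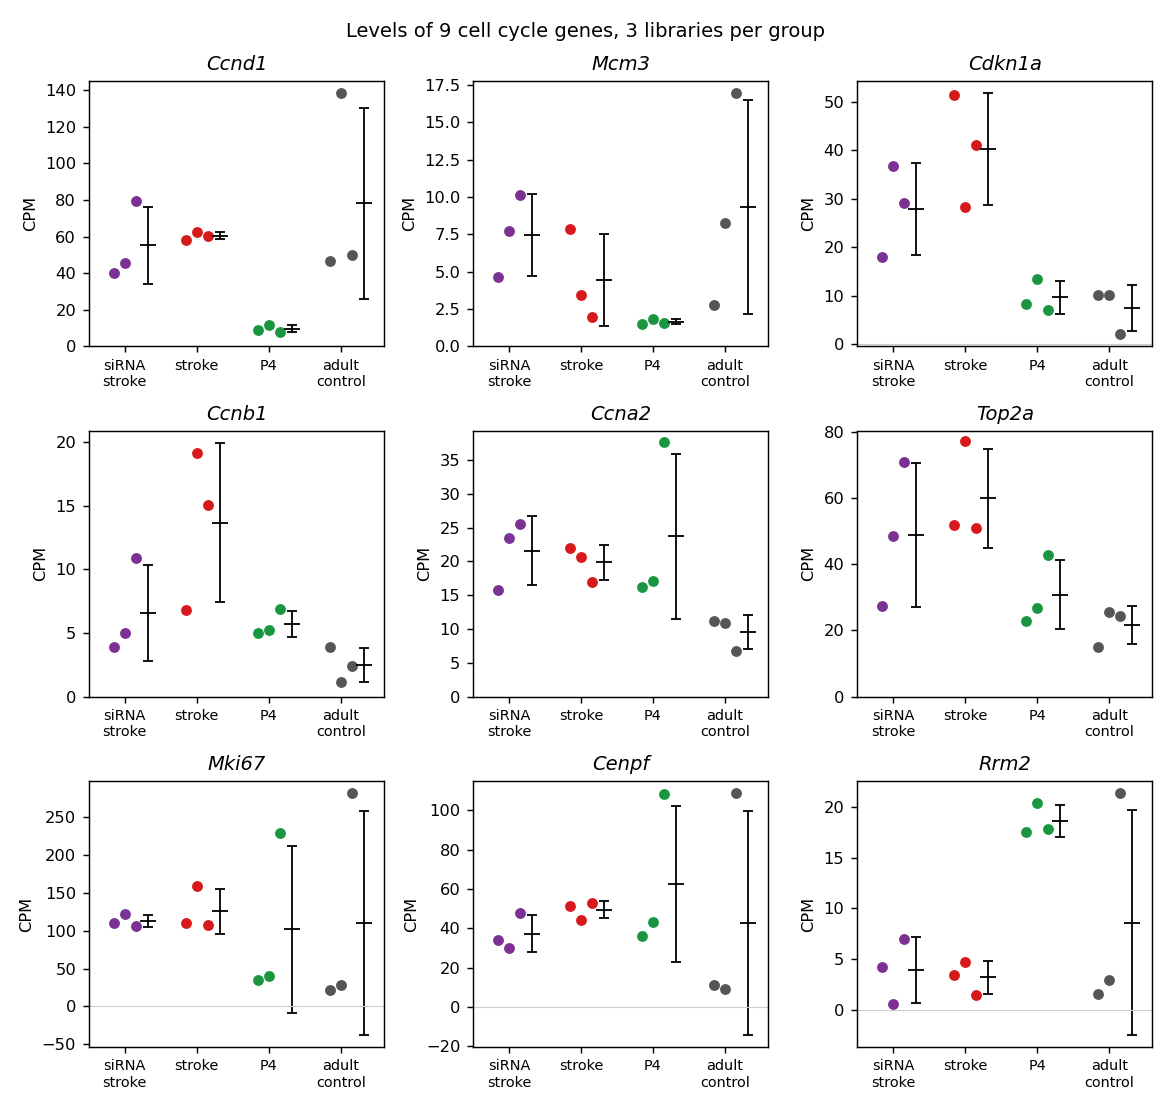
Level in CPM of 9 of the genes by group, with 1 point per library and bars for the mean ± SD (n = 3 per group). Ccnd1 is low in all 3 P4 libraries, Cdkn1a is high in all 6 libraries from stroke brains, and Mki67, Cenpf and Rrm2 in adult control rest on 1 high library out of 3.

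Without adult control 3, of the 38 members 1 was called higher in stroke, against 0.495% of the 19181 genes then tested, and 0 lower by edgeR. Cenpf, a kinetochore protein of G2 and mitosis, had 51.2, 44.4 and 52.6 CPM in stroke, against 11.06 and 8.84 CPM in adult control 1 and 2 and 108.6 CPM in adult control 3. Its log2 fold change was 2.31 ± 0.49 without that library (adjusted p = 0.0455) and 0.21 with it. Mki67 had 110.0, 159.4 and 107.1 CPM in stroke, against 21.7 and 28.8 CPM in adult control 1 and 2 and 280.9 CPM in adult control 3, and its log2 fold change of 2.31 ± 0.66 without that library did not pass (adjusted p = 0.172). Both genes turn on whether the third control is counted. Without adult control 3 the log2 fold changes of Ccnb1, Ccnb2 and Ccna2 were 2.45, 1.98 and 0.85. Those of Birc5, Tpx2 and Top2a were 3.43, 1.60 and 1.56. Cdkn1a had 1.99 ± 0.49 (adjusted p = 0.106 by edgeR), and none of these genes passed. The members' median moved to 1.00 without it, against -0.05 over all genes, and 29 of 38 were above 0 where 24 were with it. All 8 mitotic entry genes and all 8 kinetochore, spindle and cytokinesis genes were then above 0, and 0 of the 6 G1 genes were. Adult control 3 was set apart partly by these same genes, as the highest library for 11 of the 38. The counts above 0 are therefore no test of a difference, and they were not set against all genes.

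**Figure D3:**
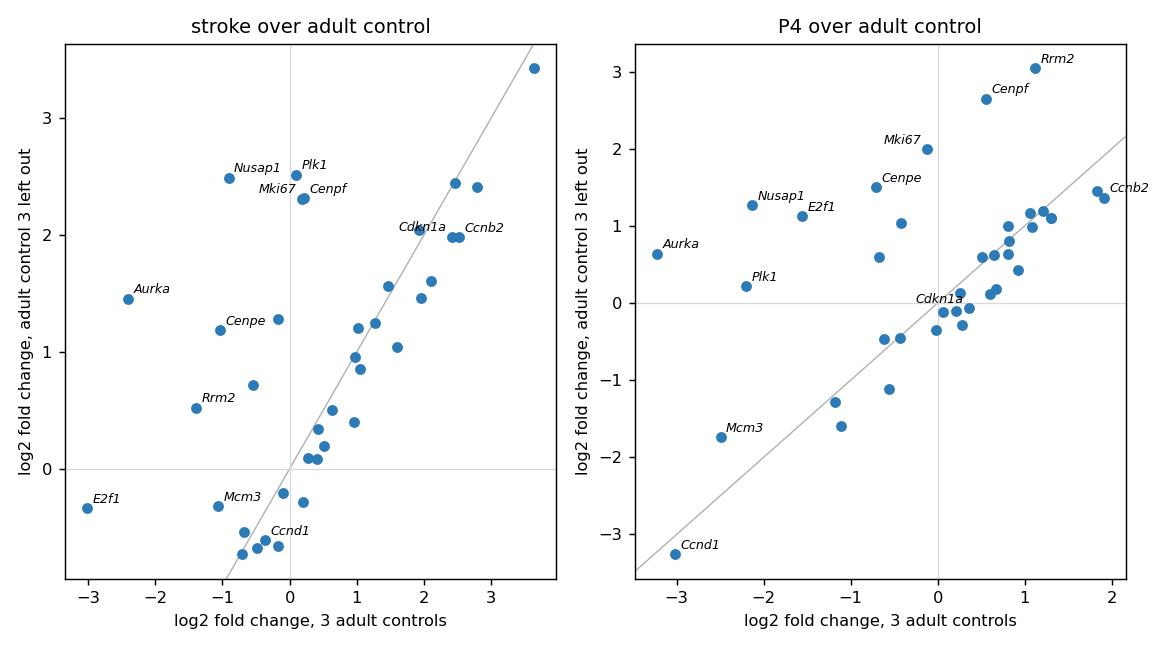
Log2 fold change of each of the 38 genes with 3 adult controls (x axis) and without adult control 3 (y axis), for stroke over adult control (left) and P4 over adult control (right), with the line of equality. Mki67, Cenpf, Nusap1, Plk1, Aurka and Cenpe lie far above the line in both panels, and Ccnd1 stays close to it.

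Markers of committed oligodendrocyte precursors were also higher in stroke. The 12 oligodendrocyte precursor markers summed to 4666 to 6608 CPM in stroke, against 2254 to 4629 CPM in adult control, and 0 of 12 were called. The 8 markers of committed precursors summed to 5055 to 8945 CPM in stroke, against 1008 to 1919 CPM in adult control, and 4 of 8 were called higher. The 16 microglia and macrophage markers summed to 514.4 to 1571 CPM in stroke, against 930.5 to 1226 CPM in adult control, with 0 called. The 16 neural and intermediate progenitor markers summed to 348.7 to 526.4 CPM in stroke, against 157.2 to 320.5 CPM in adult control, with 2 of 16 called higher. Between 1 and 2 of the 16 were at 0 in each stroke library and 2 of 16 in each adult control. Eomes, a marker of intermediate progenitors, was at 0 in all 6 libraries from stroke brains, reached 0.0749 to 0.507 CPM in P4, and had 2.97, 0 and 0.798 CPM in adult control. Eomes had at most 75 counts in a library. Neurog2 went the other way, with 0 CPM in all 3 adult controls. It had 0.433, 0 and 0.866 CPM in siRNA-labelled stroke and 0, 0.192 and 0 CPM in stroke. Both are single genes with low counts. The 16 progenitor markers together had a median log2 fold change of 0.79 in stroke over adult control, with 0 called lower. The part of these cells in the levels of the cell cycle genes was not tested.

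**Figure D4:**
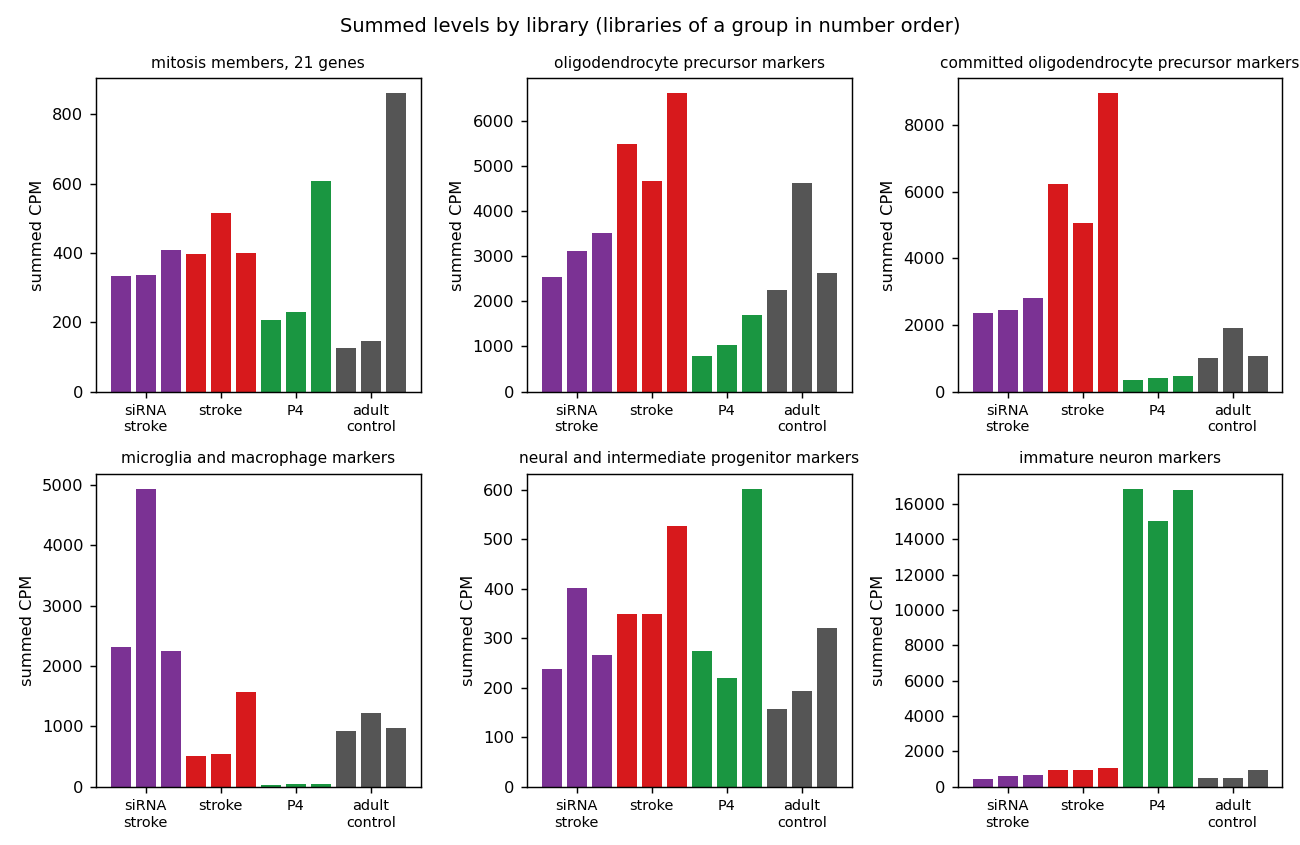
Summed CPM in each library, for the 21 mitotic genes and for 5 lists of cell type markers, with libraries of a group in number order. The committed precursor sum is highest in the 3 stroke libraries, the microglia sum in the 3 siRNA-labelled libraries, and the sum of mitotic genes in adult control 3.

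The comparison of siRNA-labelled stroke with adult control gave no calls among the 38 members by edgeR, where 0.0838% of all tested genes were called higher and 0.0335% lower. At an unadjusted p under 0.05 there were 5 members higher and 1 lower, against 3.48% and 4.88% of all tested genes. DESeq2 called 1 member higher, Cdkn1a, and 0 lower, against 1.13% and 0.939% of its genes. The siRNA-labelled libraries lay above all adult controls for 6 of 38 members, against 6.35% of all tested genes, and below them for 0, against 4.47%. The 6 were Ccna2, Ccnb1, Ccnb2, Aurkb, Top2a and Cdkn1a. The comparison shares its adult controls with that of stroke, so the members that lay above control in both are not independent of each other.

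Cdkn1a had 17.95, 36.7 and 29.1 CPM in siRNA-labelled stroke, against 10.27, 10.11 and 2.05 CPM in adult control, a log2 fold change of 1.89 ± 0.59 with an adjusted p of 0.351 by edgeR. Top2a had 27.4, 48.5 and 70.8 CPM in siRNA-labelled stroke, against 15.1, 25.5 and 24.4 CPM in adult control (log2 fold change 1.18 ± 0.44, adjusted p = 0.462). Aurkb, the kinase of the chromosomal passenger complex, had 3.90, 7.41 and 5.98 CPM in siRNA-labelled stroke, against 2.26, 2.86 and 0 CPM in adult control (adjusted p = 0.732). In all 3 genes every siRNA-labelled library was above every control, and none of them passed. Cenpe, the kinetochore motor that carries chromosomes to the spindle equator, had 25.1, 14.9 and 15.6 CPM in siRNA-labelled stroke, against 17.3, 12.8 and 180.4 CPM in adult control. Its log2 fold change was -1.92 ± 0.87 (adjusted p = 0.579) and turned to 0.30 without adult control 3. Those of Cdkn1a, Top2a and Aurkb were 1.45, 1.27 and 1.17 without adult control 3, against 1.89, 1.18 and 1.73 with it. Without that library 0 members were called by edgeR, where 0.0991% of all genes were called higher and 0.0313% lower, with 30 of 38 above 0 and a median of 0.73, against 0.21 with it. That library was set apart partly by these same genes, so the shift is no test of a difference. The microglia markers summed to 2255 to 4938 CPM in siRNA-labelled stroke, against 930.5 to 1226 CPM in adult control, with 0 of 16 called, and their part was not tested.

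The comparison of siRNA-labelled stroke with stroke asks what changed with the siRNA. No member was called by edgeR, where 0% of all tested genes were called higher and 0.00558% lower, and DESeq2 also called 0 members, against 0.667% of its genes higher and 0.275% lower. At an unadjusted p under 0.05 there were 0 members higher and 1 lower, against 4.71% and 2.66% of all tested genes. The gene was Birc5, with 0.248, 1.27 and 1.44 CPM in siRNA-labelled stroke, against 1.04, 4.42 and 15.0 CPM in stroke. Its log2 fold change was -2.77 ± 1.13 (adjusted p = 0.633), and the groups overlapped. The groups did not overlap for 1 member above, against 7.77% of all tested genes, and for 1 below, against 8.11%. Cdkn1b was the gene above, with 21.6, 48.3 and 18.9 CPM in siRNA-labelled stroke, against 13.7, 14.9 and 15.1 CPM in stroke. Bub1b, the checkpoint protein BubR1, was the gene below, with 3.28, 1.91 and 3.725 CPM in siRNA-labelled stroke, against 5.35, 5.73 and 5.92 CPM in stroke (adjusted p = 0.784). The median of the members was -0.10, against 0.04 over all genes. The committed precursor markers summed to 2363 to 2804 CPM in siRNA-labelled stroke, against 5055 to 8945 CPM in stroke, without overlap and with 0 of 8 called. The microglia markers went the other way, with 2255 to 4938 CPM in siRNA-labelled stroke, against 514.4 to 1571 CPM in stroke. They also did not overlap, and 0 of 16 were called. The part of these cells was not tested.

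The comparison of P4 with adult control gave 0 members called higher and 2 lower by edgeR, where 6.32% of all tested genes were called higher and 10.4% lower, so the share of members called lay below the background in both directions. At an unadjusted p under 0.05 there were 1 member higher and 4 lower, against 11.8% and 17.6% of all tested genes, and DESeq2 called 1 higher and 4 lower, against 11.5% and 16.7% of its genes. P4 libraries lay above all adult controls for 7 of 38 members, against 16.1% of all tested genes, which is close to that share, and below them for 3, against 16%. The median log2 fold change of the members was 0.27, against -0.16 over all genes. Without adult control 3 it was 0.61, against -0.09 over all genes. That library was set apart partly by these same genes, so the shift is no test of a difference.

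Ccnd1, cyclin D1, was lower in P4. The gene lies at chr7:144929931-144939831 in GRCm38.p6, and its product carries growth signals to the G1 kinases. It had 9.08, 11.7 and 8.11 CPM in P4, against 46.55, 138.5 and 49.7 CPM in adult control, a log2 fold change of -3.02 ± 0.48 with an adjusted p of 0.000439. Every P4 library was several times below the lowest adult control. The 3 adult controls were uneven, with adult control 2 highest. The other D-type cyclins did not pass, with log2 fold changes of -0.62 for Ccnd2 (adjusted p = 0.426) and -1.11 for Ccnd3. The 12 oligodendrocyte precursor markers summed to 781.5 to 1686 CPM in P4, against 2254 to 4629 CPM in adult control, with 10 of 12 called lower. The microglia markers summed to 22.8 to 48.1 CPM in P4, against 930.5 to 1226 CPM in adult control, with 15 of 16 called lower. The 12 immature neuron markers summed to 15060 to 16870 CPM in P4, against 510.9 to 928.7 CPM in adult control, with 12 of 12 called higher. Of the 15 neuronal markers 7 were called higher and 0 lower. The part of these cells in the level of Ccnd1 was not tested.

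Mcm3, a subunit of the replicative helicase loaded in G1, had 1.52, 1.84 and 1.58 CPM in P4, against 2.78, 8.27 and 17.0 CPM in adult control, a log2 fold change of -2.49 ± 0.81 with an adjusted p of 0.0476. The P4 libraries were even and all below adult control, where adult control 3 was highest. The call was lost without that library (log2 fold change -1.74, adjusted p = 0.140), without adult control 2 (adjusted p = 0.0717) and without any single P4 library (adjusted p of 0.113 to 0.167). Mcm4, of the same helicase, had 18.1, 14.7 and 7.415 CPM in P4, against 31.4, 34.4 and 25.55 CPM in adult control (log2 fold change -1.18 ± 0.44, adjusted p = 0.0804). Its groups did not overlap and it did not pass. The other subunits did not share a direction, with log2 fold changes of 0.28 for Mcm2, 0.68 for Mcm5, 0.81 for Mcm6 and 1.08 for Mcm7, none of which passed.

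Of the mitotic genes Ccna2 had 16.25, 17.1 and 37.7 CPM in P4, against 11.14, 10.9 and 6.73 CPM in adult control (log2 fold change 1.299 ± 0.48, adjusted p = 0.0824). Every P4 library was above every adult control and P4 6 stood out. Ccnb1, Birc5, Bub1b, Cdc20, Kif20a and Mcm7 were the other members with no overlap above control. Without adult control 3, edgeR called 3 members higher, against 6.21% of 19181 genes, and 1 lower, against 9.94%. Cenpf was higher with 36.1, 43.4 and 108.2 CPM in P4, against 11.06 and 8.84 CPM in adult control 1 and 2 (log2 fold change 2.65 ± 0.50, adjusted p = 0.00156). Rrm2, the regulated subunit of ribonucleotide reductase that makes deoxynucleotides, was higher with 17.5, 20.4 and 17.9 CPM in P4, against 1.59 and 2.91 CPM in adult control 1 and 2, with 21.3 CPM in adult control 3 (log2 fold change without it 3.04 ± 0.88, adjusted p = 0.0266). Both were above those controls in every P4 library. Mki67 was also called (log2 fold change 2.00 ± 0.65, adjusted p = 0.0469), with 35.5, 40.7 and 228.3 CPM in P4, so that P4 6 was far above the others. With P4 6 left out as well, Cenpf and Rrm2 were the 2 members called higher, against 1557 of 18644 genes. Adult control 3 was set apart partly by the levels of the members, so calls made without it are no independent test.

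**Figure D5:**
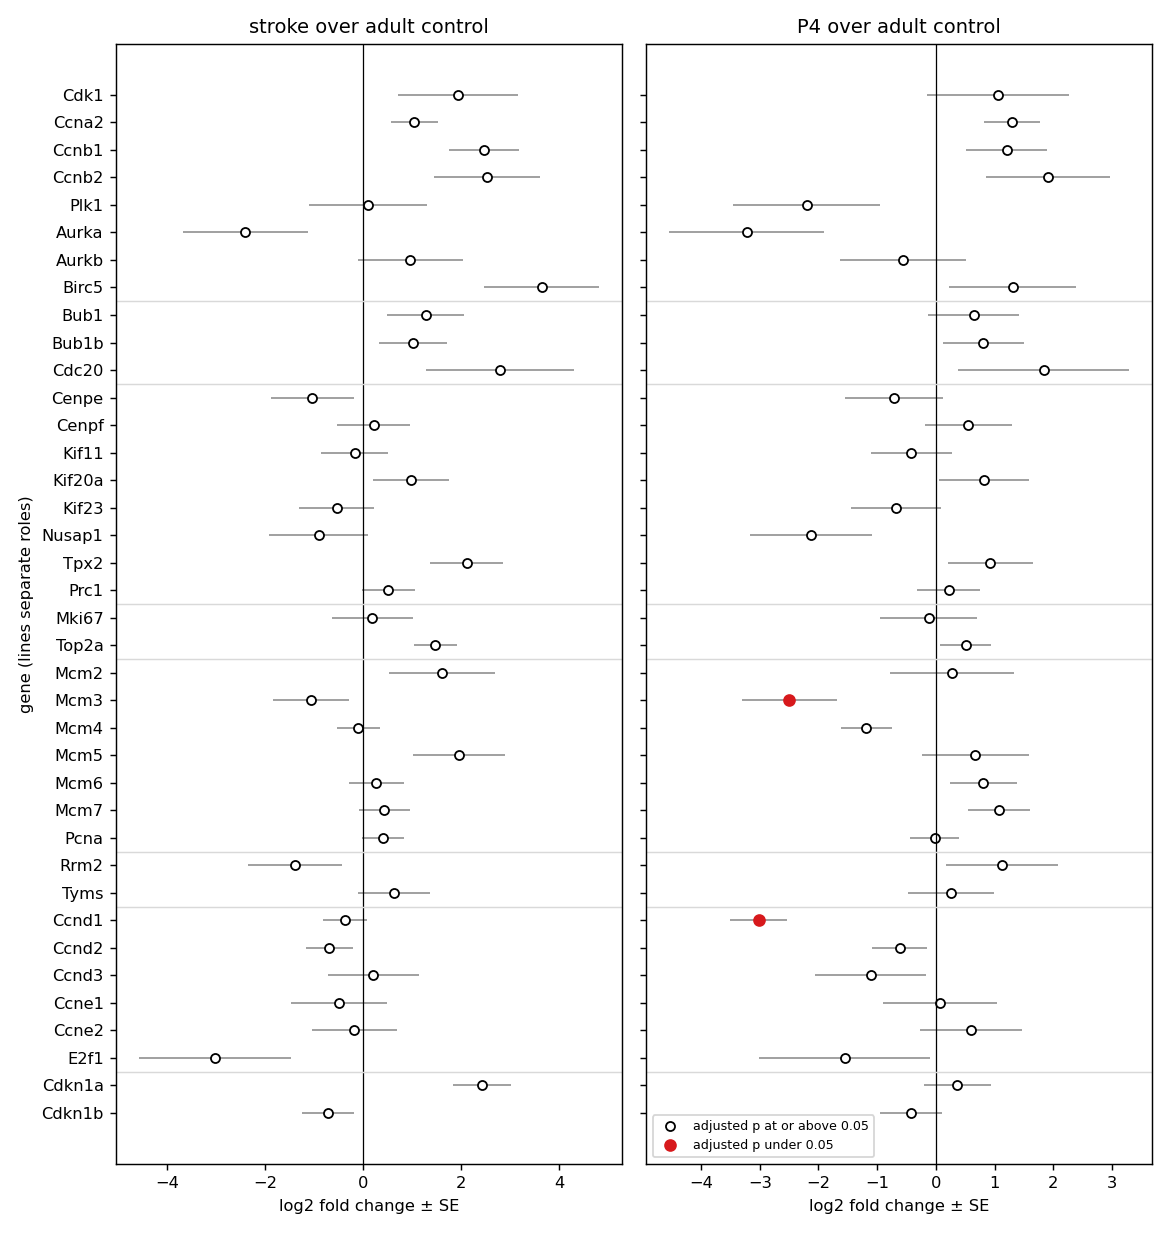
Log2 fold change ± SE of each of the 38 genes for stroke over adult control (left) and P4 over adult control (right), with filled red points at adjusted p under 0.05 by edgeR over all 17909 genes tested. Ccnd1 and Mcm3 in P4 are the 2 filled points, and no gene is filled for stroke.

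Stroke against P4 gave 2 members called higher and 0 lower by edgeR, where 10.8% of all tested genes were called higher and 7.94% lower. At an unadjusted p under 0.05 there were 4 members higher and 1 lower, against 16.1% and 13.9% of all tested genes, and DESeq2 called 3 higher and 1 lower, against 14.5% and 14.1% of its genes. The stroke libraries lay above all P4 libraries for 10 of 38 members, against 22.6% of all tested genes, and below them for 3, against 21.7%. The median log2 fold change was 0.52, against -0.04 over all genes. The comparison shares its P4 libraries with that of P4 and adult control.

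Ccnd1 had 58.4, 62.6 and 60.6 CPM in stroke, against 9.08, 11.7 and 8.11 CPM in P4, and rose by 2.65 ± 0.47 on the log2 scale (adjusted p = 0.000896). The stroke libraries were close to each other and all far above P4. Cell type markers also differed. Those called higher in stroke than in P4 were 16 of 16 for microglia and 10 of 12 for oligodendrocyte precursors. For committed precursors they were 8 of 8, and for oligodendrocytes 12 of 12. Called lower were 9 of 15 neuronal markers and 8 of 12 immature neuron markers. Their part in the level of Ccnd1 was not tested. Cdkn1a had 51.4, 28.4 and 41.2 CPM in stroke, against 8.40, 13.6 and 7.098 CPM in P4, a log2 fold change of 2.05 ± 0.59 with an adjusted p of 0.0227. Its groups were well apart, but the call was lost without stroke 4 (adjusted p = 0.135), stroke 6 (0.0642), P4 4 (0.0948) or P4 6 (0.0813). Rrm2 had 3.45, 4.71 and 1.52 CPM in stroke, against 17.5, 20.4 and 17.9 CPM in P4 (log2 fold change -2.52 ± 0.99, adjusted p = 0.0959). All 3 stroke libraries were below P4 and the gene did not pass here, while the authors' deposited table called it, with Ccnd1 and Cdkn1a, among 16.6% of its genes. Plk1, a kinase of mitotic entry and centrosome maturation, had 4.42, 6.73 and 2.77 CPM in stroke, against 1.22, 1.19 and 0.380 CPM in P4 (adjusted p = 0.239).

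Ccnd1 had 40.2, 45.85 and 79.4 CPM in siRNA-labelled stroke, against 9.08, 11.7 and 8.11 CPM in P4, and it was the 1 member called higher in siRNA-labelled stroke over P4 by edgeR (log2 fold change 2.52 ± 0.47, adjusted p = 0.00126), with 0 lower, where 11.6% of all tested genes were called higher and 8.05% lower. At an unadjusted p under 0.05 there were 4 members higher and 1 lower, against 16.7% and 13.4% of all tested genes, and DESeq2 called 5 higher and 0 lower, against 15.5% and 13% of its genes. The libraries lay above all P4 libraries for 8 of 38 members, against 20.7% of all tested genes, and below them for 4, against 18.7%. The median log2 fold change was 0.41, against 0.08 over all genes. Mcm3 had 4.64, 7.70 and 10.11 CPM in siRNA-labelled stroke, against 1.52, 1.84 and 1.58 CPM in P4 (log2 fold change 2.18 ± 0.80, adjusted p = 0.0728). Mcm4 had 34.2, 25.2 and 36.5 CPM in siRNA-labelled stroke, against 18.1, 14.7 and 7.415 CPM in P4 (adjusted p = 0.0579). In both helicase genes the groups were apart, and neither passed. Of the markers, 16 of 16 for microglia and 8 of 12 for oligodendrocyte precursors were called higher in siRNA-labelled stroke than in P4. So were 7 of 8 for committed precursors and 12 of 12 for oligodendrocytes. Called lower were 9 of 15 neuronal markers and 11 of 12 immature neuron markers. The part of these cells was not tested.

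Over the 4 groups Ccnd1 averaged 55.2 ± 21.2 CPM in siRNA-labelled stroke, 60.5 ± 2.08 CPM in stroke, 9.63 ± 1.85 CPM in P4 and 78.25 ± 52.2 CPM in adult control (SD, n = 3 each). Both stroke groups overlapped with adult control. Adult control was highest by mean through adult control 2 alone, since the other adult controls, at 46.55 and 49.7 CPM, lay below all 3 stroke libraries. P4 was lowest and kept its call against each of them in every alternative run. Cdkn1a averaged 27.9 ± 9.44 CPM in siRNA-labelled stroke, 40.3 ± 11.5 CPM in stroke, 9.69 ± 3.425 CPM in P4 and 7.48 ± 4.70 CPM in adult control. The stroke groups overlapped with each other and were highest, and P4 and adult control overlapped with each other. The remaining G1 genes were uneven. E2f1, a transcription factor of S phase genes, had 10.33, 0.2895 and 0.433 CPM in siRNA-labelled stroke, 0.587, 0.609 and 2.335 in stroke, 4.14, 4.48 and 1.01 in P4, and 2.74, 0.248 and 25.7 CPM in adult control. It was high in 1 library of 2 groups, and no comparison called it. Ccne1 and Ccne2, the E-type cyclins, stayed between 0.570 and 11.5 CPM in every library with no call.

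Other genes of the same pathways were read from 4 lists. Of 42 other mitosis and cytokinesis genes, 0 were called higher and 2 lower in P4 over adult control, and 0 in either direction in stroke over adult control, where 7 were higher and 1 lower at an unadjusted p under 0.05 by edgeR. In P4 over adult control 6.32% of all tested genes were called higher and 10.4% lower. At an unadjusted p under 0.05 by edgeR, 5.46% of all tested genes were higher and 10.5% lower in stroke over adult control. Without adult control 3, 1 was called higher (Kif15, named after its value was seen) and 2 lower in P4 over adult control, against 6.21% and 9.94% of all genes. Their median log2 fold change was 0.85 in stroke over adult control, against -0.08 over all genes, and 0.99 without adult control 3. The 2 genes lower in P4 were Anln and Pttg1. Anln, an actin-binding protein of the cleavage furrow that myelinating oligodendrocytes also make, averaged 8.08 ± 2.83 CPM in P4 and 636 CPM in adult control (log2 fold change -6.31 ± 0.37, adjusted p = 7.8e-08). In the same comparison 12 of 12 oligodendrocyte markers were called lower, and their part was not tested. Pttg1, securin, averaged 2.39 ± 0.94 CPM in P4 and 24.0 CPM in adult control (log2 fold change -3.34 ± 0.56, adjusted p = 0.000671).

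Of 34 other DNA replication genes, 2 were called higher and 1 lower in P4 over adult control, against 6.32% and 10.4% of all tested genes, and 0 in stroke over adult control, where 0 also had an unadjusted p under 0.05 by edgeR. Without adult control 3, 0 of the 34 were called higher and 1 lower in P4, against 6.21% and 9.94% of all genes. Dnmt1, the maintenance DNA methyltransferase, averaged 107.9 ± 22.8 CPM in P4 and 41.4 CPM in adult control (log2 fold change 1.38 ± 0.38, adjusted p = 0.0221). Dnmt1 no longer passed when adult control 3 (adjusted p = 0.0531), adult control 1 (0.0821), P4 4 (0.0868) or P4 5 (0.0838) was left out. Gins4, of the replicative helicase complex, averaged 13.2 ± 4.87 CPM in P4 and 36.8 CPM in adult control (log2 fold change -1.48 ± 0.41, adjusted p = 0.0210). Its call was kept without adult control 3 and lost without any other 1 of the 6 libraries (adjusted p of 0.0516 to 0.068). Of 18 E2F, RB and DREAM regulators, 0 were called higher and 3 lower in P4 over adult control, against 6.32% and 10.4% of all tested genes. Without adult control 3, 1 was higher (Tfdp1, named after its value was seen) and 3 lower, against 6.21% and 9.94%. Tfdp2, a dimer partner of E2F proteins, averaged 22.4 ± 7.51 CPM in P4 and 82.05 CPM in adult control (log2 fold change -1.87 ± 0.33, adjusted p = 0.00111). Rbl2, the pocket protein p130 of the DREAM complex, averaged 87.35 ± 19.5 CPM in P4 and 190.2 CPM in adult control (log2 fold change -1.12 ± 0.28, adjusted p = 0.0124). The call of Rbl2 was lost without P4 4 (adjusted p = 0.0726) or P4 5 (0.0746). Both were lower in P4 and neither passed between stroke and adult control. Dbf4 (called higher) and E2f8 (called lower) complete the counts with all libraries, did not hold without P4 4 or P4 5 (adjusted p of 0.064 to 0.131), and were named after their values were seen. Dbf4 also lost its call without P4 6 (adjusted p = 0.0856), adult control 2 (0.126) or adult control 3 (0.0602).

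Of 16 tested G1 kinases and other CDK inhibitors, 1 was called higher and 0 lower in P4 over adult control, against 6.32% and 10.4% of all tested genes. The counts were the same without adult control 3, against 6.21% and 9.94%. In stroke over adult control 1 was called higher, against 0.486% of all tested genes, and 0 were without adult control 3, against 0.495%. Cdkn1c, which encodes the inhibitor p57, averaged 14.1 ± 6.98 CPM in siRNA-labelled stroke, 56.9 ± 17.6 CPM in stroke, 39.3 ± 13.4 CPM in P4 and 6.815 ± 4.45 CPM in adult control (SD, n = 3 each). It was higher in stroke than in adult control (log2 fold change 3.05 ± 0.61, adjusted p = 0.0337), a call that was lost without any 1 of the stroke libraries (adjusted p of 0.0784 to 0.143), without adult control 1 (0.136) and without adult control 3 (0.0515). It was also higher in P4 than in adult control (log2 fold change 2.51 ± 0.60, adjusted p = 0.00874). Between siRNA-labelled stroke and stroke its log2 fold change was -2.01 ± 0.58, which did not pass (adjusted p = 0.504).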

How the data were processed

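The members and the gene lists were chosen with earlier results of these data known. The authors deposited raw read counts per gene, and the deposited table also holds log2 fold changes and p-values with false discovery rates for pairs of groups, which were used only for the calls credited to it. The submitters' processing notes name CASAVA 1.8.2, edgeR and mm10, and which aligner, counter, annotation and strand setting were used is not given in the sources used here. Reads of Ccnb1, Pcna, Ccnd3 and Tyms may be shared with pseudogenes that RefSeq lists for them. One count column is headed P3, not P4, and its number ties it to the first P4 sample.

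Counts were analysed in R 4.3.3 with edgeR 4.0.16. The function filterByExpr, given the groups, set which genes were tested, TMM set the scale, and a single quasi-likelihood fit held all 12 libraries with a mean for each group, with Benjamini-Hochberg adjustment over 17909 genes and calls at 0.05. The SE is the absolute log2 fold change over the square root of F. The naming rule covered all 38 members and the 2 genes of smallest p in P4 over adult control from each other pathway list. Not every gene it covered is discussed by name. Alternatives were RLE size factors, no filter, DESeq2 1.42.0, only the groups compared, a replicate block and each library left out. No pair of libraries agreed within sampling noise, so each was counted as 1 sample, which does not show that they came from separate animals. P4 4 and P4 5 were the most alike in P4, with a correlation of log2 levels of 0.989, against 0.897 and 0.895 with P4 6.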

Additional observations from a re-analysis of the deposited data

How the results depend on the processing

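Alternatives were tallied for members with an unadjusted p under 0.05 in a comparison by edgeR and for called genes of the other lists. Of these values, 662 kept their direction and side of the threshold, 141 lost their call, 20 gained one and 3 turned direction. The 3 were Cenpe in siRNA-labelled stroke over adult control without adult control 3 (log2 fold change 0.30, adjusted p = 0.972; -2.406 to 0.296 with single libraries left out) and Aurka in P4 over adult control without adult control 3 (0.64, adjusted p = 0.780; -3.764 to 0.638 with single libraries left out) and without P4 6 and adult control 3 (1.06, adjusted p = 0.582). The setting that left out both libraries was chosen after seeing the data. It gave 2 members higher and 1 lower in P4 over adult control, against 1557 and 1898 of 18644 genes. Members outside the tally above also turned direction without adult control 3. In stroke over adult control the log2 fold change of Nusap1 went from -0.91 to 2.49, and that of Aurka from -2.40 to 1.46. With single libraries left out, members called in P4 over adult control numbered 0 to 3 higher and 1 to 2 lower, in stroke over adult control 0 to 1 higher, in stroke over P4 1 to 2 higher, and in siRNA-labelled stroke over P4 1 higher throughout. In the same order, all genes called numbered 731 to 1192 higher and 1121 to 1907 lower, 21 to 239, 1382 to 1742, and 1421 to 1914 higher, of 18765 to 19422 tested. DESeq2, which gave an adjusted p for 35 members, called 1 higher and 4 lower in P4 over adult control, 5 higher in stroke over adult control, 1 higher in siRNA-labelled stroke over adult control, 3 higher and 1 lower in stroke over P4, and 5 higher in siRNA-labelled stroke over P4. The shares of all genes called by DESeq2 stand with each comparison above. With only the 2 groups compared there was 1 lower in P4 over adult control, against 961 of 16198 genes. Stroke over P4 then had 4 higher and 1 lower, against 2580 and 2209 of 15587 genes. For siRNA-labelled stroke over P4 there were 4 higher, against 2267 of 15836 genes. Without the low-count filter 1 was lower in P4 over adult control, against 1814 of 23253 genes. RLE size factors gave 2 higher in siRNA-labelled stroke over P4, against 1975 of 17909 genes. RLE moved the median of all genes to -0.185 in stroke over adult control, against -0.08 with TMM, and to -0.163 in stroke over P4, against -0.036. The causes were not tested.

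The replicate numbers were not shown to pair the libraries: same-numbered libraries of stroke and P4 correlated at 0.160, 0.014 and 0.153 in their deviations from the group means, and those of siRNA-labelled stroke and adult control at 0.064, -0.191 and -0.336. With a replicate block in the fit of only the 2 groups, 5 members were higher and 1 lower in stroke over P4, against 2484 and 2083 of 15587 genes. In siRNA-labelled stroke over adult control 0 members were called, and 0 of all 15803 genes were. Depth limits the rarest members, with 3 counts worth 0.0562 to 0.342 CPM per library.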

Other observations

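Targets of the tumour suppressor p53, which include Cdkn1a, were read from a list of 18 other genes. In P4 over adult control 1 was called higher and 3 lower by edgeR, where 6.32% and 10.4% of all tested genes were. Plk2, a polo-like kinase of stress responses and synapses, was higher, with 251.6 ± 26.4 CPM in P4 and a mean of 35.1 CPM in adult control (log2 fold change 2.84 ± 0.40, adjusted p = 0.000148). Mdm2, the ubiquitin ligase that degrades p53, was lower, with 86.1 ± 10.7 CPM in P4 and a mean of 194.3 CPM in adult control (log2 fold change -1.17 ± 0.31, adjusted p = 0.0165). Btg2 and Trp53inp1 were the other genes called lower. Without adult control 3, 1 was called higher and 4 lower, Phlda3 among them, against 6.21% and 9.94% of all genes. The call of Mdm2 was lost without P4 5 (adjusted p = 0.0637) or adult control 1 (0.0593), and those of Btg2 and Trp53inp1 without any 1 of the other 5 libraries of these groups (adjusted p of 0.051 to 0.114). In stroke over P4, 5 were called higher and 2 lower, against 10.8% and 7.94% of all tested genes. Those higher were Mdm2 (log2 fold change 1.86), Btg2 (2.60), Gadd45a (4.00), Phlda3 (4.55) and Trp53inp1 (1.52), and those lower were Plk2 and Perp. The call of Perp was lost without any 1 of the 6 libraries (adjusted p of 0.0707 to 0.1), that of Gadd45a without P4 4 (0.0521) or P4 5 (0.0506), and that of Trp53inp1 without stroke 4 (0.111). In siRNA-labelled stroke over P4, 6 were called higher and 1 lower, against 11.6% and 8.05% of all tested genes. In stroke over adult control 0 were called. At an unadjusted p under 0.05 by edgeR there were 2 higher and 1 lower, against 5.46% and 10.5% of all tested genes. The median log2 fold change was 0.67, against -0.08 over all genes. That median was 0.44 without adult control 3, where 0 were called. All genes of this list other than Plk2 and Mdm2 were named after their values were seen. The comparisons with P4 share its 3 libraries.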
